A study of Drosophila melanogaster with 4 samples.

Results

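The regions described here are the clusters of H3K9me2 enrichment on distal 3L, the left arm of chromosome 3 of Drosophila melanogaster without the 2 Mb next to its centromere. The authors deposited 1 cluster list per ChIP replicate and 1 joint list of both, here the pooled list. All pooled clusters on sequence 3L of FlyBase release 5 that start outside the last 2 Mb of its 24543557 bp were taken, which gave 409 of 4277. Chromatin came from whole wild-type embryos of the Oregon-R strain, 14 to 16 h old, and was immunoprecipitated with an antibody, described as a new lot, to dimethylated lysine 9 of histone H3. The 4 samples comprise 2 ChIP libraries and, for each of them, 1 input library. All share strain, genotype and stage, so there is no treated or mutant group, and the labels do not say whether the replicates came from separate embryo collections. The SDs below therefore measure only the spread between these 2 libraries, which may be technical. In whole embryos, a mark in few cells and a weak mark in many cells cannot be told apart.

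H3K9me2 is a hallmark of heterochromatin. In flies it is written by histone methyltransferases such as Su(var)3-9, Eggless and G9a, and the chromodomain protein HP1a binds methylated H3K9 and helps to compact and silence the underlying DNA. Most of the mark lies around centromeres, and genes moved next to such blocks by rearrangements are silenced in a mosaic of cells. On the gene-rich arms the mark is known for smaller islands, among them transposon insertions. The chromosome ends of the fly are kept by telomeric retrotransposons in place of telomerase, and reporter genes inserted next to them are often silenced.

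The 3 lists differed in length, and this touches every value below. On distal 3L, replicate 1 held 263 clusters over 0.651 Mb and replicate 2 held 186 clusters over 0.461 Mb, while the pooled list held 409 clusters over 0.952 Mb. In the whole lists the counts were 3579, 3238 and 4277. The lists give a position and a score for each cluster but no read counts, so the depth behind them is unknown. The score is the authors' own value, its scale is not stated, and it is used here to order clusters within a list and, as it stands, in 1 correlation between the replicates.

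Clusters were sparse and short on distal 3L. Of its 22.5 Mb, replicate 1 covered 2.89% and replicate 2 covered 2.04%, on average 2.47% ± 0.598 (SD, n = 2), and the authors' pooled list covered 4.22%. Replicate 1 had 11.7 clusters per Mb, replicate 2 had 8.25 and the pooled list had 18.1. Their median lengths were 2065, 2106.5 and 1888 bp in the same order. Of the 409 pooled clusters, 235 were at most 2 kb long, 151 were longer than 2 kb up to 5 kb, and 23 were longer than 5 kb. The longest measured 17166 bp and the shortest 1001 bp. Most members ranked low in the genome-wide lists. Only 42 of the 263 members in replicate 1 and 20 of the 186 in replicate 2 belonged to the upper 50% of their list by score, and the median member stood at percentile 25.3 and 20.7.

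Clusters occurred in every 1 Mb window of distal 3L, and no window was densely covered. In the 22 full windows, the covered share lay between 1.40% and 5.01% in replicate 1, with a median of 2.63%. In replicate 2 it lay between 1.03% and 3.79%, with a median of 1.73%. Replicate 1 had the higher share in all 22 of these windows. Averaged over the replicates, the window from 11000001 to 12000000 was covered most, over 4.75% in replicate 1 and 3.60% in replicate 2, and it also held the most pooled clusters, 27. The next window, from 12000001 to 13000000, was covered least, over 1.40% and 1.16%, and held the fewest pooled clusters, 9. Windows with a higher share in one replicate tended to have a higher share in the other (Spearman's rho 0.757 and Pearson's r 0.807 across 22 windows of the same 2 libraries, as a description). In windows of 100 kb the mark was patchier: 83 of 225 windows, or 36.9%, held no cluster in either replicate.

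**Figure D1:**
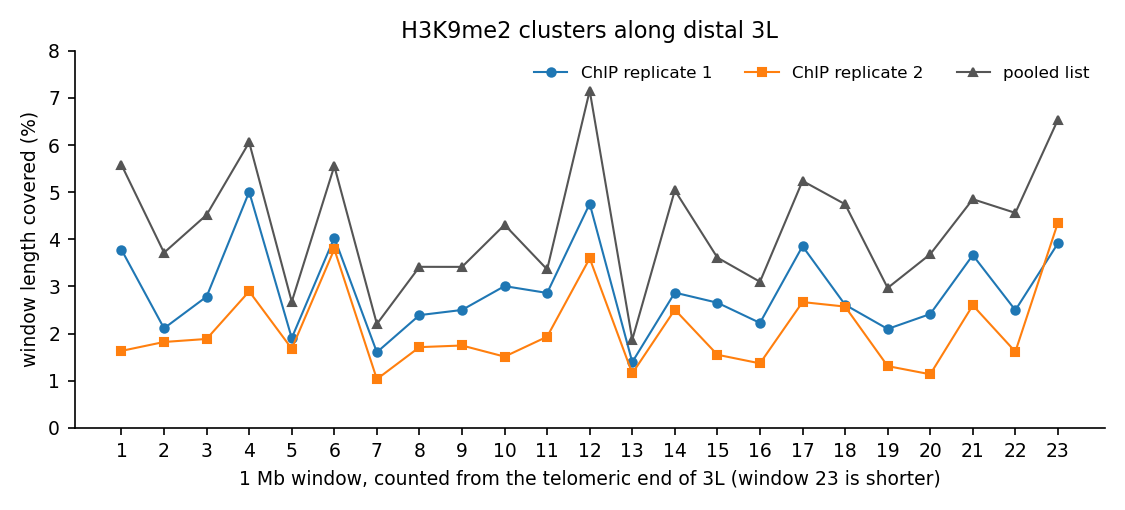
Share of each 1 Mb window covered by H3K9me2 clusters (y axis, percent) along distal 3L, counted from the telomeric end (x axis), in ChIP replicate 1, ChIP replicate 2 and the authors' pooled list. Window 12 holds the highest mean of the 2 replicates, 4.75% and 3.60%, and window 13 beside it the lowest, 1.40% and 1.16%.

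The 10 highest-scoring clusters that both replicates touched lay scattered along the arm and were between 3309 and 11073 bp long. Of these 10, 5 had no other pooled cluster within 10 kb and 5 had at least 1. The highest by pooled score ran from 5451199 to 5459993, 8.80 kb. It was 1 cluster in each replicate, covered over 99.8% in replicate 1 and 87.4% in replicate 2, and it ranked 2nd among the distal 3L clusters of both replicate lists. In the pooled list it stood at percentile 92.8 of all clusters. The next by score, from 22092725 to 22098943, ended 0.445 Mb inside the proximal limit. Each replicate split it into 2 clusters, with the stronger piece at the same place, from 22092749 to 22096145 in replicate 1 and from 22092740 to 22096155 in replicate 2. These pieces ranked 4th and 3rd among the members of their lists. The cluster next in score, from 11960789 to 11965601, was covered over 96.2% and 92.3% and ranked 6th and 4th among the members.

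A further pair of these clusters lay 52.0 kb apart near 20.4 Mb, with 1 other pooled cluster between them. The cluster from 20409850 to 20417905, 8.06 kb, was covered over 99.2% in replicate 1 and 97.4% in replicate 2. The cluster from 20469930 to 20477817, 7.89 kb, was covered over 98.6% and 99.6%. Their edges differed by at most 111 bp between the pooled list and either replicate. They ranked 8th and 7th among the members in replicate 1, and 9th and 8th in replicate 2.

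The cluster 6th in pooled score among those touched by both replicates, 11th of all 409, ran from 5103750 to 5114822. It was 11.1 kb long and was broken up differently by the replicates. Replicate 1 had 3 pieces, of which the last, from 5112485 to 5114801, was the highest-scoring of all 263 members in that list. Replicate 2 had 2 pieces, and the longer of them ran from 5106648 to 5114801. The next, from 11605678 to 11612865, had an inner core from 11606906 to 11612533 in replicate 1 and from 11607028 to 11611925 in replicate 2. These cores ranked 3rd and 5th by score, although the pooled cluster around them ranked only 15th of 409. The remaining 3 of the 10 ran from 9166969 to 9173129, from 13564798 to 13569377 and from 13572179 to 13575487. The last 2 belong to the same local group of 3 clusters, all touched by both replicates. Over the 10 clusters, coverage lay between 77.4% and 99.8% in replicate 1 and between 68.1% and 99.6% in replicate 2.

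The 2 longest members had middling scores within the whole pooled list. Among the members of distal 3L both lay above the median score of 0.517, with 1.09 and 0.578. The longest, from 60635 to 77800, lies near the telomeric end and stood at percentile 60.5 of the pooled list by score. The next in length, from 11464003 to 11476841, 12.8 kb, stood at percentile 38.6. Its replicate clusters filled only part of it: replicate 1 had 1 cluster from 11469961 to 11476534 and replicate 2 had 3 clusters, so that 51.2% and 43.3% of it were covered. The clusters 3rd to 5th in length are those at 5103750, 5451199 and 20409850, already described among the 10 highest by score. Of all members, 12 were split by at least 1 replicate, and each of these was at least 5039 bp long.

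At the telomeric end, the first 100 kb of the arm sequence was the most covered 100 kb window of the first 1 Mb. It was covered over 20.1% in replicate 1 and 11.8% in replicate 2, against 3.78% and 1.63% of the first 1 Mb as a whole. The long cluster between 60635 and 77800 made up 81.8% of this covered length in replicate 1 and all of it in replicate 2. No other 100 kb window of the first 1 Mb was covered over more than 4.46% in replicate 1 or 2.61% in replicate 2. Such windows also occurred elsewhere on distal 3L: 13 of 225 windows in replicate 1 and 8 in replicate 2 were covered over at least 10%. The most covered ran from 3400001 to 3500000 in replicate 1, with 20.7%, and from 20400001 to 20500000 in replicate 2, with 15.7%. In replicate 1 the telomeric block consisted of 2 clusters, from 60678 to 73331 and from 73843 to 77679. In replicate 2 it consisted of 4, from 62895 to 64219, from 65341 to 70442, from 70653 to 72676 and from 74038 to 77423. The replicates thus shared the block but differed at its left edge by 2.2 kb. Outward of it, the pooled list had 2 small clusters. The cluster from 53994 to 55881 was touched by replicate 1 only, and the outermost, from 28037 to 29037, by neither. The outermost cluster of the replicate lists began at 54004 in replicate 1 and at 62895 in replicate 2.

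Between the telomeric block and the end of the first 1 Mb, 21 pooled clusters started. Both replicates touched 2 of them, replicate 1 alone touched 8, and 11 were touched by neither. Without the long cluster, the mean covered share of the first 1 Mb was 1.29%, against 2.71% ± 1.52 with it (SD, n = 2). The first 100 kb at the outer ends of other arm sequences gave 2.13% and 2.15% on 2L and 20.5% and 18.4% on X in replicates 1 and 2. On 3R it gave 1.42% in replicate 1 and no cluster in replicate 2. The differences between arm ends were not tested, since the 2 libraries are of 1 condition.

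**Figure D2:**
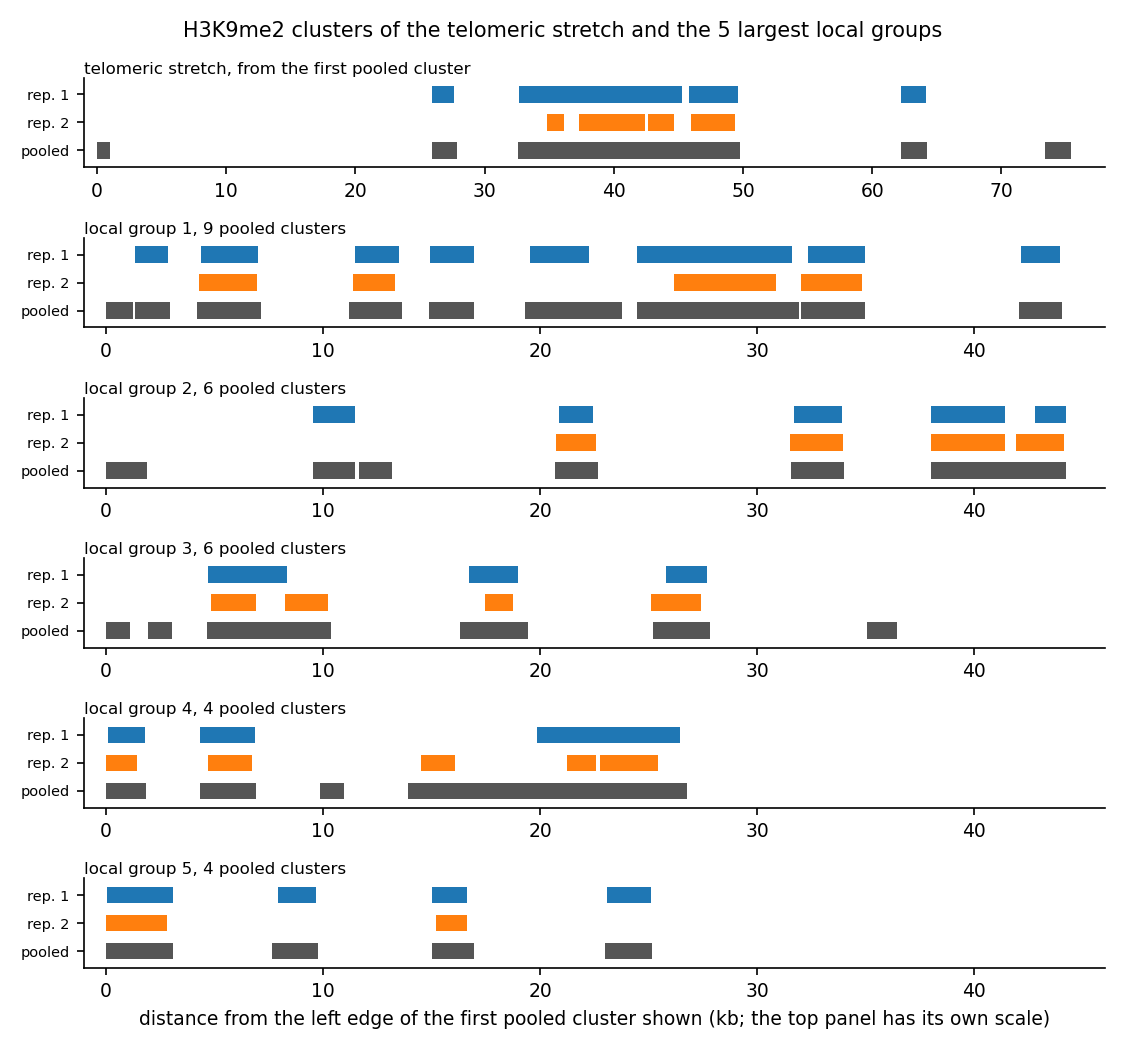
Clusters in ChIP replicate 1, ChIP replicate 2 and the authors' pooled list (rows of each panel) in the telomeric stretch of 3L and in the 5 local groups with most pooled clusters, drawn to scale as distance from the left edge of the first pooled cluster shown (x axis, kb). The 9 pooled clusters of the largest group match 8 clusters in replicate 1 and 4 in replicate 2.

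Neighbouring clusters formed a few local groups, defined as at least 3 pooled clusters, each at most 10 kb from the next. There were 20 such groups with 75 clusters, 18.3% of the members. Another 98 members stood in pairs, and 236, or 57.7%, had no other pooled cluster within 10 kb. Groups spanned between 5.80 and 44.2 kb, with a median of 13.2 kb, and 14 of them had only 3 clusters. Grouped clusters were touched by both replicates in 37.3% of cases, clusters in pairs in 46.9% and lone clusters in 36.4%.

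The largest group, from 3460559 to 3504593, held 9 pooled clusters in 44.0 kb. Clusters covered 51.2% of this span in replicate 1, with 8 clusters, and 27.5% in replicate 2, with 4. Its core was the cluster from 3485029 to 3492478, found in replicate 1 from 3485018 to 3492180 and in replicate 2 from 3486747 to 3491431. The 4 clusters that replicate 2 held were the core, its right neighbour, and the clusters from 3464763 to 3467702 and from 3471780 to 3474214. Of the other 5 pooled clusters, 4 were touched by replicate 1 only.

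The group next in size, from 22054728 to 22098943, led up to the strong cluster at 22092725 on its right edge. Its 6 pooled clusters covered 36.0% of 44.2 kb, against 23.8% in replicate 1 and 22.4% in replicate 2. The group from 19100435 to 19136882 also had 6 pooled clusters. Both replicates touched the 3 longest of them, between 2612 and 5715 bp, and neither touched the other 3, between 1101 and 1378 bp. The group from 11450079 to 11476841, with 4 pooled clusters, contained the long cluster at 11464003. The group from 16550981 to 16576151 had 4 pooled clusters whose starts lay 7.66, 7.37 and 7.97 kb apart, all found in replicate 1 and 2 of them in replicate 2.

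Not all groups had support in single libraries. Replicate 1 touched 17 of the 20 groups and replicate 2 touched 12. In 8 groups no cluster was touched by both replicates, and the groups from 7673150 to 7678950, from 8580611 to 8590416 and from 11557948 to 11570064 were touched by neither. Both replicates had all 3 clusters of the groups from 13558251 to 13575487 and from 18704592 to 18717490. These 5 groups were singled out after their values were seen. With the same definition, replicate 1 alone had 10 groups and replicate 2 alone had 7, of which 7 and 6 overlapped a pooled group. Those that did not ran from 54004 to 77679, from 5103760 to 5114801 and from 9910196 to 9921299 in replicate 1. In replicate 2 it was the group from 62895 to 77423. Each held pieces of a pooled cluster that the replicate had split, at 60635, 5103750 and 9916402 in replicate 1 and at 60635 in replicate 2.

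Cluster-free stretches made up a large part of distal 3L. The median distance between neighbouring pooled clusters was 27.3 kb and the mean 52.8 kb. There were 17 stretches of at least 200 kb without a pooled cluster, and together they made up 4.94 Mb, or 21.9% of distal 3L. No replicate cluster lay within any of them, apart from cluster edges that reached in by at most 161 bp. That was nearly fixed in advance and is no separate support for the stretches. Pooled clusters touched all 263 replicate 1 clusters and 185 of the 186 replicate 2 clusters on distal 3L. The longest, 538 kb from 12229431 to 12767008, was free of clusters over 542 kb in each replicate. It is the longest such stretch in replicate 1 too.

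The next 4 stretches ran from 9485551 to 9910117, from 6036053 to 6431967, from 18072789 to 18395216 and from 4588958 to 4901195, between 312 and 425 kb each. In replicate 2 all 4 were part of longer free stretches, of 571, 822, 594 and 515 kb. In replicate 1 the first 3 had nearly the same length as in the pooled list, and the last extended to 515 kb. Both replicates were thus free of clusters from 4588958 to 5103759, where the pooled list has 2 clusters that neither replicate touched. The longest free stretch of replicate 2, 822 kb from 6035804 to 6858295, contained 5 whole pooled clusters, 1 of them touched by neither replicate. The next in replicate 2, 719 kb from 19187703 to 19906780, contained 9, of which 3 were touched by neither. These 2 stretches of replicate 2 were chosen after their values were seen.

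Next to the proximal limit, coverage was above that of distal 3L as a whole, by less in replicate 1 than in replicate 2. The last 1 Mb before the limit was covered over 3.12% in each replicate and over 5.04% in the pooled list, against 2.89%, 2.04% and 4.22% of all distal 3L in replicate 1, replicate 2 and the pooled list. The 0.5 Mb next to the limit was covered over 4.25% in replicate 1 and 4.73% in replicate 2. Such coverage was not confined to this end. The windows from 5000001 to 6000000 (4.04% and 3.79%) and from 11000001 to 12000000 (4.75% and 3.60%) exceeded the last 1 Mb in both replicates. The last cluster inside the limit ran from 22508212 to 22509730 and the first outside it from 22565647 to 22568502, with pooled scores of 0.390 and 0.638. No cluster straddled the limit.

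Replicate support of the pooled clusters differed with their length. Both replicates touched 160 of the 409, or 39.1% (95% Wilson interval 34.5 to 43.9%, counting error only). Replicate 1 alone touched 96, replicate 2 alone touched 12, and 141, or 34.5%, were touched by neither. All 23 members longer than 5 kb were touched by both. Between 2 and 5 kb, 117 of 151 were touched by both and 4 by neither. The shortest cluster of either replicate list measured 1301 bp, and between this length and 2 kb 20 of 157 were touched by both. Of the 78 still shorter members none was touched by both and 73 were touched by neither. Neither replicate list holds a cluster as short as these, so a match of equal length was not possible for them. A longer cluster is also touched more easily, since 1 bp of overlap counts. The relation to length was therefore partly fixed in advance and is no separate support for the longer members. The 160 members touched by both held 0.563 Mb of the 0.952 Mb in the pooled list, and the 141 touched by neither held 0.185 Mb.

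**Figure D3:**
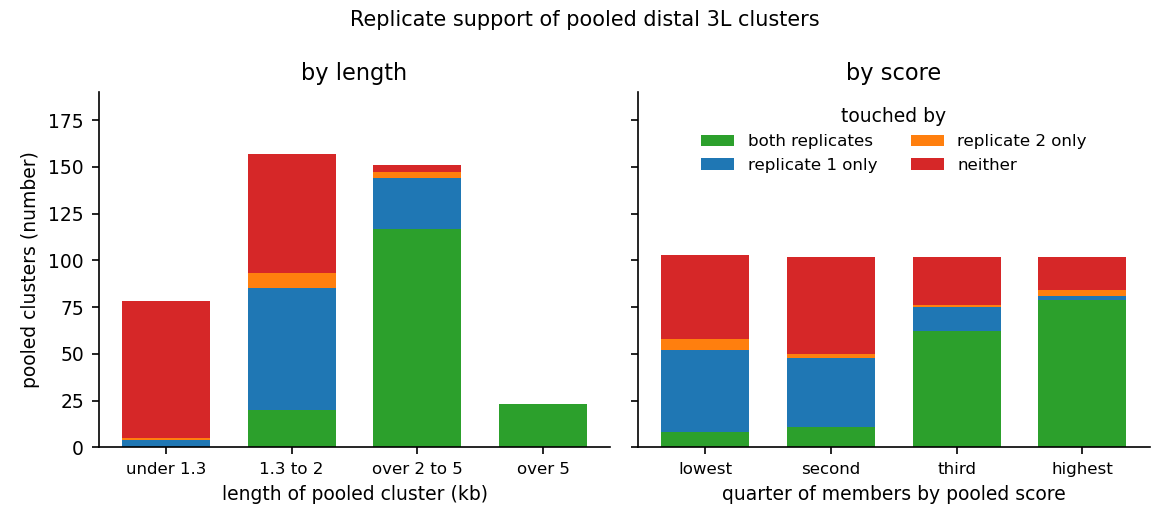
Number of pooled distal 3L clusters (y axis) touched by both replicates, by 1 replicate only or by neither, for classes of cluster length (left, kb; the first class ends at 1301 bp, the shortest cluster of either replicate list) and for 4 equal classes of the authors' pooled score (right). All 23 clusters over 5 kb are touched by both, and the highest score class still holds 18 clusters touched by neither.

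High scores did not always come with replicate support. Among the 102 members with the highest pooled scores, 79 were touched by both replicates and 18 by neither. Among the 103 with the lowest, 8 were touched by both and 45 by neither. The exceptions at high score were short. Of the 73 members with a score of at least 1, the 55 longer than 2 kb were touched by both replicates in 52 cases, whereas of the 18 up to 2 kb long 15 were touched by neither. Of the 14 members with a score of at least 2, 6 were touched by both and 8 by neither. The single highest pooled score on distal 3L, 2.99, belonged to a cluster of 1001 bp from 404183 to 405183 that neither replicate touched. The next such clusters ran from 12916894 to 12917894, with a score of 2.51, and from 21299335 to 21301196, with 2.45. In all, 12 members were exactly 1001 bp long, the shortest length in the pooled list, and neither replicate touched any of them. Both replicate lists hold only longer clusters.

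**Figure D4:**
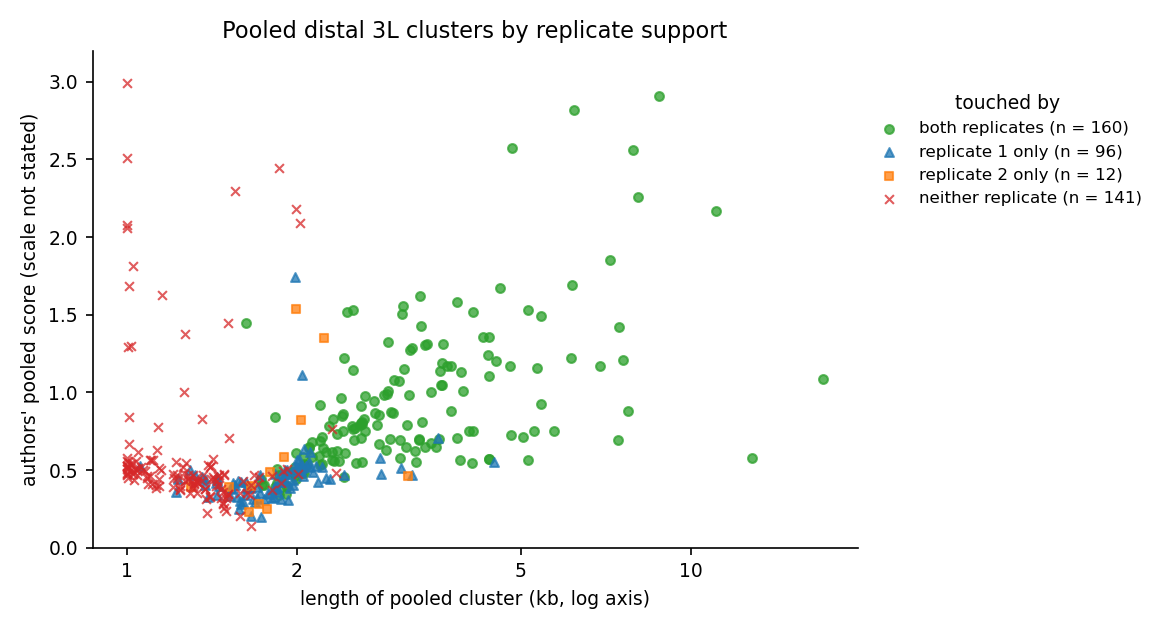
Authors' pooled score (y axis, scale not stated) against length (x axis, kb, log axis) for the 409 pooled distal 3L clusters, marked by the replicates that touch them. Clusters touched by both replicates (n = 160) are mostly longer than 2 kb, and the short clusters with scores of at least 2 at the upper left are touched by neither.

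Members that were 1 cluster in each replicate had a similar order by score, and their edges mostly lay close together. Over distal 3L the Jaccard index of the replicates was 0.584, which is the number of bases covered in both over the number covered in at least 1. Replicate 1 touched 170 of the 186 replicate 2 clusters, or 91.4%, and replicate 2 touched 165 of the 263 replicate 1 clusters, or 62.7%. Most replicate 1 clusters that replicate 2 lacked had low scores: 123 of the 132 in the upper part of the replicate 1 members by score were touched, and 42 of the 131 in the lower part. For the 148 members that were 1 cluster in each replicate, starts differed by a median of 147.5 bp and ends by 164.5 bp. The comparison leaves out the 12 members that at least 1 replicate split, whose outlines differed between the lists. Touching was counted against the pooled cluster, so the replicate clusters of a member need not overlap each other. In the member from 21148842 to 21153229 they did not. In 65 of the 148 members, or 43.9%, both edges lay within 200 bp. The replicate 1 cluster was the longer in 115 and the replicate 2 cluster in 33. Across these 148 members, scores in the replicates gave Spearman's rho 0.844 and Pearson's r 0.921. These coefficients describe clusters that were found in both libraries and carry no test. Every replicate 1 cluster was touched by a pooled cluster, and only 1 replicate 2 cluster, from 4211800 to 4213350, was not, which was singled out after its values were seen.

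The covered share of distal 3L was closest to that of distal 2L, the left arm of chromosome 2, among the 3 arms set beside it. With the proximal 2 Mb removed in the same way, the arms kept 22.5 Mb of 3L, 21.0 Mb of 2L, 25.9 Mb of 3R and 20.4 Mb of X. The pooled list held 409 clusters on distal 3L, against 370 on distal 2L, 371 on distal 3R and 986 on distal X. The covered share of distal 3L, 2.47% ± 0.598, compares with 2.71% ± 0.581 on distal 2L, 1.51% ± 0.477 on distal 3R and 8.23% ± 1.66 on distal X (SD, n = 2 each). Within each library distal 3L was covered a little less than distal 2L, over 2.89% against 3.12% in replicate 1 and over 2.04% against 2.30% in replicate 2. The difference to X was larger than the SD of either, and in both replicates distal 3L lay above 3R and below X. The same order held for clusters per Mb. Distal 3L had 11.7 and 8.25 in replicates 1 and 2, distal 3R had 8.34 and 5.06, and distal X had 32.6 and 25.2. On distal 2L the replicates had 11.8 and 8.61, a little above distal 3L. In the pooled list 2L lay below 3L, with 17.6 against 18.1. No test was made, because the exact permutation test over samples needs groups of samples to permute.

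Spacing was compared in the same way. The limits of 10 kb for groups and 200 kb for free stretches were the same on every arm, so both measures depend on cluster density. The pooled list had 18.1 clusters per Mb on distal 3L, 17.6 on 2L, 14.3 on 3R and 48.3 on X. Whether spacing differs beyond density was not tested. Local groups held 18.3% of the pooled clusters on distal 3L, 21.9% on 2L, 18.3% on 3R and 53.7% on X. Distal 3L had 17 cluster-free stretches of at least 200 kb, against 12 on 2L, 29 on 3R and 1 on X. Per Mb these were 0.754 on distal 3L, 0.571 on 2L, 1.12 on 3R and 0.0490 on X. Its longest stretch, 538 kb, lay below the 678 kb of 2L and the 604 kb of 3R. The share of pooled clusters touched by both replicates was 39.1% on distal 3L, 42.7% on 2L, 30.7% on 3R and 43.9% on X. Genes were not assigned to clusters, since the gene annotation at hand is for release 6 of the genome and the cluster positions are for release 5.

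**Figure D5:**
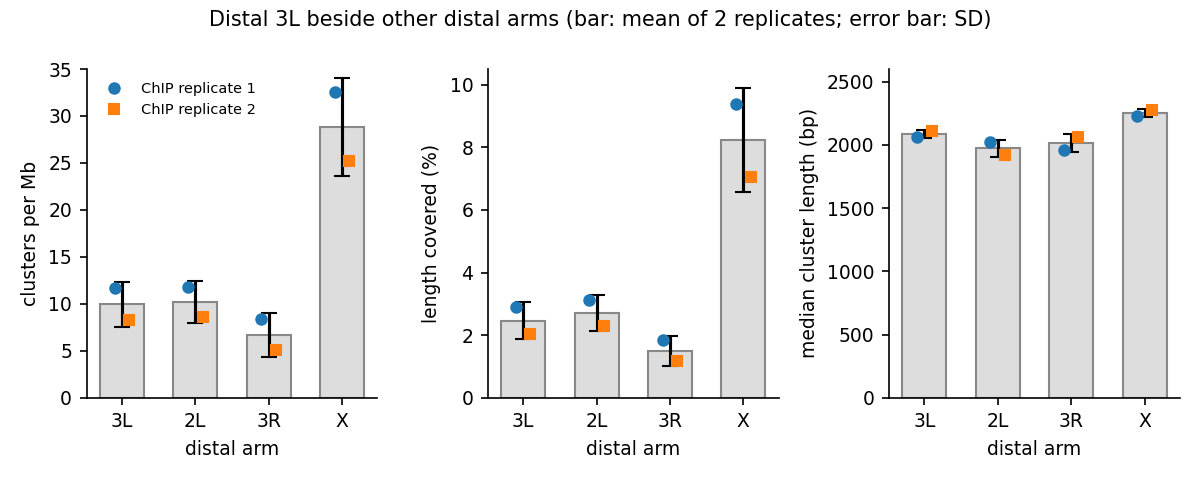
Clusters per Mb, covered share (percent) and median cluster length (bp) on distal 3L, 2L, 3R and X without their proximal 2 Mb; points are the 2 ChIP replicates, bars their mean and error bars the SD. Distal 3L lies near 2L, above 3R and below X in clusters per Mb and covered share.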

How the data were processed

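H3K9me2 ChIP libraries of Oregon-R embryos were represented by 3 deposited cluster lists, 1 per ChIP replicate and 1 for the replicate set, on FlyBase release 5 per the file headers. The inputs enter only through the authors' calls. Reads were processed with Bowtie 0.12.7 among other steps, per the submitters' processing notes. Not given in the sources used here are the caller, its threshold and how the replicates were pooled. Each cluster carries the authors' score as deposited, on a scale the headers do not state, and served to order clusters within 1 list and for the correlation of matched replicate clusters. Depth is unknown. The sequence length was not corrected for gaps or for places where reads cannot be mapped.

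Clusters were compared as intervals in Python 3.11.15 (pandas 2.3.3, numpy 2.4.6, scipy 1.17.1; figures with matplotlib 3.10.9), after the functions were tested on simulated clusters. An overlap of 1 bp counted as touched, and clusters were trimmed at the limit for covered lengths. With 2 libraries of 1 condition no test between groups was made. Regions were named by rule: the 10 highest-scoring and 5 longest clusters touched by both replicates, the 5 longest free stretches and largest local groups, the 3 outermost clusters, the 3 highest touched by neither, those beside the limit, and the extreme 1 Mb windows. The members, definitions and alternatives were chosen with earlier results of these data known. The planned look-up of genes and sequences was not run, because it needs a release 5 genome.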

Additional observations from a re-analysis of the deposited data

How the results depend on the processing

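Values with no test count as moved here when they left the replicate SD, the 95% Wilson interval or a factor of 1.5. With the pooled list, the covered share was 4.22%, the density 18.1 per Mb, the median length 1888 bp, the telomeric 1 Mb 5.58% and the most proximal 1 Mb 5.04%. When each list was limited to its upper 50% by score, these became 0.549%, 1.38 per Mb, 3384.25 bp, 0.633% and 0.683%, with 13.6% of pooled clusters touched by both replicates, 2 local groups holding 5.45% of the clusters and 38 free stretches. With only 1 Mb removed at the proximal end, which brings in dense pericentric clusters, the covered share was 4.32%, the median length 2262.75 bp, the share touched by both 44.0% and the share in groups 24.8%. With 3 Mb removed no value moved. The Jaccard index stayed within the factor of 1.5, between 0.392 for the upper 50% by score and 0.721 with only 1 Mb removed. The share touched by both was 48.3% for clusters at least as long as the shortest replicate cluster and, in a setting chosen after seeing the data, 77.3% for the upper 50% of the pooled list with whole replicate lists. Leaving out 1 replicate leaves between 42.1% and 62.6% touched by the other. Means of 2 replicates move by less than their SD by construction when 1 is left out. They ranged between 2.04% and 2.89% for the covered share, 1.63% and 3.78% for the telomeric 1 Mb, and 3.1229% and 3.1249% for the most proximal 1 Mb.

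Local groups numbered 13 with gaps up to 5 kb and 46 with gaps up to 20 kb, holding 11.2% and 43.5% of the clusters. Among clusters touched by both there were 5 groups with 9.38%, in replicate 1 there were 10 with 14.4%, and in replicate 2 there were 7 with 14.0%. Free stretches numbered 66 from 100 kb, 5 from 300 kb, 40 among clusters touched by both, 29 in replicate 1 and 38 in replicate 2. The most proximal 0.5 Mb and 2 Mb were covered over 4.49% and 2.48%. The cause of these changes was not tested beyond the construction of each setting. Of 12 named clusters, the one at 60635 kept a mean coverage of 36.9% and the one at 11464003 kept 0 when lists were limited in that way. No paired analysis was possible because the inputs have no cluster list of their own.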

Other observations

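The highest-scoring distal 3L cluster of replicate 2 had no counterpart in replicate 1. It ran from 16519306 to 16521414, 2109 bp, and stood at percentile 97.5 of the whole replicate 2 list. It lies within the pooled cluster from 16515992 to 16521425, which ranked 31st of 409 by pooled score. The other part of that pooled cluster was called in both libraries, from 16516116 to 16519078 in replicate 1 and from 16515976 to 16518109 in replicate 2. This region was picked out after its values were seen.

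Members touched by neither replicate lay at widely differing distances from the nearest replicate cluster. The median distance to the nearest cluster of either replicate was 25.9 kb. Of the 141, 39 lay within 10 kb of one and 9 lay more than 100 kb away, the farthest at 201 kb. Clusters were widely spaced in general. The median gap between neighbouring pooled clusters was 27.3 kb, and 57.7% of all members had no other pooled cluster within 10 kb. These values concern pooled neighbours, so they are not a like measure for the distances to replicate clusters. Of the 34 clusters that flank the 17 free stretches, counting each flank, 11 were touched by both replicates, 13 by replicate 1 only and 10 by neither. Of all 409 members, 160 (39.1%) were touched by both, 96 by replicate 1 only and 141 (34.5%) by neither. Scores that agree to 6 decimals were shared with another member by 25 of all 409 members, or 6.11%. By support these were 15 of the 141 touched by neither, 6 of the 96 touched by replicate 1 only and 4 of the 160 touched by both. The difference between these classes was not tested.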
